A study of Mus musculus with 20 samples.

Results

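The genes described here are 9 mouse genes that act in writing, copying or oxidising 5-methylcytosine or in excising its oxidised forms: Dnmt1, Uhrf1, Dnmt3a, Dnmt3b, Dnmt3l, Tet1, Tet2, Tet3 and Tdg. They were picked by gene symbol out of the 37561 genes that all tables list, and all 9 were among the 13608 genes whose level was high enough to be tested. RNA-Seq was carried out on spherical neural masses (SNM) made from D3 embryonic stem cells, a mouse line of strain 129s2/SvPas kept on mouse embryo fibroblast feeder cells, while they differentiated towards dopaminergic neurons. The control line carried a retroviral short hairpin RNA (shRNA) against luciferase, and the HPRT knockdown line carried one against HPRT, the purine salvage enzyme hypoxanthine guanine phosphoribosyltransferase. Each line was collected daily from day 0 to day 4 of neuronal differentiation and every other day from day 6 to day 14, with 1 library for each line and day and so 10 libraries a line. Both lines were thus infected with a virus and carried an shRNA, and uninfected cells were not analysed here.

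DNA methyltransferases place a methyl group on cytosine, mostly where a guanine follows. After replication UHRF1 binds the half-methylated daughter strands and brings in DNMT1, which copies the mark, whereas DNMT3A and DNMT3B methylate new sites and DNMT3L, which has no activity of its own, stimulates them. TET enzymes oxidise 5-methylcytosine and thymine DNA glycosylase (TDG) cuts out the oxidised bases, which base excision repair then replaces. In embryonic stem cells DNMT3B, DNMT3L and TET1 are abundant, and in neural cells DNMT3A, TET2 and TET3 are the prevailing members of their families. RNA was measured here, not methylation.

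The promoters of the 4 members that were lower in the knockdown line are shown because they differ in a visible feature. In each 300-base sequence (250 bases before the RefSeq start and 50 after it, build GRCm38.p6, written 5′ to 3′ on the strand of the gene), capitals mark E2F motifs, that is TTTCCCGC, TTTGGCGC, TTTCGCGC or TTTGCCGC on either strand, and the octamer ATGCAAAT on either strand. All 9 members matched the RefSeq table, with 16 start sites in all, and the start richest in CpG was taken for each gene.
Dnmt1, chr9:20952574-20952873, minus strand: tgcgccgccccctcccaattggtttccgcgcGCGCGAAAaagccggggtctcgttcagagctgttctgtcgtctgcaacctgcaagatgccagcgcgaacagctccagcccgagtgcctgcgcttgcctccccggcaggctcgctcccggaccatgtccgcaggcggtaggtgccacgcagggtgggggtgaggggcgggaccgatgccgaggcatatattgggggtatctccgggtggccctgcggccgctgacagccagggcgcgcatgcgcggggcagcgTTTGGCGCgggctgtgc
Uhrf1, chr17:56304063-56304362, plus strand: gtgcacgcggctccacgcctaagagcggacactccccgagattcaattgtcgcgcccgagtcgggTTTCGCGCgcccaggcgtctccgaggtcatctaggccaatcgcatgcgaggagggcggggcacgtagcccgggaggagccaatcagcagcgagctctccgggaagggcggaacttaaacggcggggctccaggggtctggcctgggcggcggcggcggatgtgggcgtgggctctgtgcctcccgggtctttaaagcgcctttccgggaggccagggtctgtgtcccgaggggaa
Dnmt3b, chr2:153649199-153649498, plus strand: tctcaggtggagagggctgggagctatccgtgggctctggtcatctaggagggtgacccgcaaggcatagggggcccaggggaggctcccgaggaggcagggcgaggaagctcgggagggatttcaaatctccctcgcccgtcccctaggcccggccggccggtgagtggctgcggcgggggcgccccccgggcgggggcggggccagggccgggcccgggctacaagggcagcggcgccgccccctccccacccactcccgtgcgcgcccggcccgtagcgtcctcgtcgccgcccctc
Tet1, chr10:62887275-62887574, minus strand: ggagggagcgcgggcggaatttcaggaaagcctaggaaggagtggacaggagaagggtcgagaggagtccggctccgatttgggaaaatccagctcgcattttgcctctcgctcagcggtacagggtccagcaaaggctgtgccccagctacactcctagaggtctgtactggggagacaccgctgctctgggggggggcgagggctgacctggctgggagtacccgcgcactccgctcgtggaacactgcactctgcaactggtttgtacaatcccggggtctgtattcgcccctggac
The printed Dnmt1 window held 2 E2F motifs, with first bases at -219 and 34 from its start, and the printed Uhrf1 window held 1, at -185. Such a motif was present in 2.26% of the 32851 promoters of the table. Each of these words contains CpG, so the share among promoters as rich in CpG as the printed ones may be higher. That share was not measured. Of the 3 Dnmt1 starts and the 2 Uhrf1 starts, only the printed one of each gene held such a motif. The other Dnmt1 starts (windows chr9:20952930-20953229 and chr9:20959839-20960138) lie upstream of the printed one. The whole printed Dnmt1 window therefore lies downstream of those starts, inside the span of transcripts that begin there. Which start these cells used was not tested. No start of the other members held an E2F motif, and no start of any member held the octamer, which 1.74% of all promoters did. The printed windows of Dnmt1 and Uhrf1 each held 33 CpG, that of Dnmt3b 30 and that of Tet1 17. The median over all promoters was 7, and the CpG-richest Dnmt3l start held 6. These are matches of letters, not binding sites, and no match says only that these letters are not in this window.

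On the build of the deposited data (NCBI37/mm9), the protein-coding genes lie at chr9:20711650-20757317 (Dnmt1, minus strand), chr17:56442744-56462909 (Uhrf1), chr12:3806007-3914443 (Dnmt3a), chr2:153475186-153513466 (Dnmt3b), chr10:77504692-77526367 (Dnmt3l), chr10:62267318-62361866 (Tet1, minus strand), chr3:133126643-133207354 (Tet2, minus strand), chr6:83312367-83391672 (Tet3, minus strand) and chr10:82092573-82113544 (Tdg). Reads of 3 of them may have been shared with near-identical copies. Of the exon bases of Uhrf1, 63.5% had a copy elsewhere in the genome at 95% identity or more over at least 50 bases, mostly on chromosome X, and of those of Tdg 58.1% did, mostly on chromosome 15. For Dnmt3b the share was 18.1%, all of it elsewhere on chromosome 2. It was 2.32% for Dnmt3a and 1.35% for Tet1, and no copy was found for Dnmt1, Dnmt3l, Tet2 or Tet3. Genes annotated on the opposite strand covered 6.83% of the exon bases of Tdg (Glt8d2), 2.24% of those of Dnmt3l (Aire) and 0.799% of those of Dnmt3a (Gm10485), and reads were not kept apart by strand. The sources used here do not say how reads with several positions were counted, and the values of Uhrf1, Tdg and, in part, Dnmt3b are uncertain to that extent.

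Each deposited table holds 2 libraries as log2 values centred on their mean, so the measured quantity is a log2 ratio, here always knockdown over control on the same day. Hprt, the target of the hairpin, was at 6.24% of control on average, with a mean log2 ratio of -4.002 ± 0.888 (SD, n = 9 days), and at -3.42 on day 6. In the control line its level was between 516 and 877 normalized reads, with a median of 664, and in the knockdown line between 19.8 and 136, with a median of 37.2. The lines did not overlap on any day. Day 6, which the study set aside as discrepant when it tested pathways, entered no test and is given as a value beside the result of each enzyme. Days of a line are successive collections and not separate cultures, so p-values measure the spread between days, and in bulk RNA fewer cells of a type and less RNA per cell cannot be told apart.

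Of the 9 enzymes, 4 were lower in the knockdown line and none was higher at an adjusted p under 0.05 by limma: Dnmt1, Uhrf1, Dnmt3b and Tet1. At that threshold 26.3% of all genes tested were lower and 26.2% were higher. The median of the mean log2 ratio was -0.58 over the 9 members and 0.01 over all genes. Dnmt3a, Dnmt3l, Tet2, Tet3 and Tdg did not pass. At an unadjusted limma p under 0.05 the members were 5 lower and 0 higher, where 58.7% of all genes passed in either direction. From day 0 to day 4 the number of members at least 2-fold lower was 1, 6, 3, 3 and 2, where the share of all genes was 6.62%, 12.9%, 8.68%, 6.97% and 6.01%. On days 6, 8, 10, 12 and 14 it was 0, 1, 3, 4 and 2, where the share of all genes was 7.95%, 5.69%, 11.4%, 11.5% and 10.7%. A member at least 2-fold higher was found on day 0 (Tet2) and on day 6 (Dnmt3l), where the share of all genes was 12.5% and 4.49%.

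**Figure D1:**
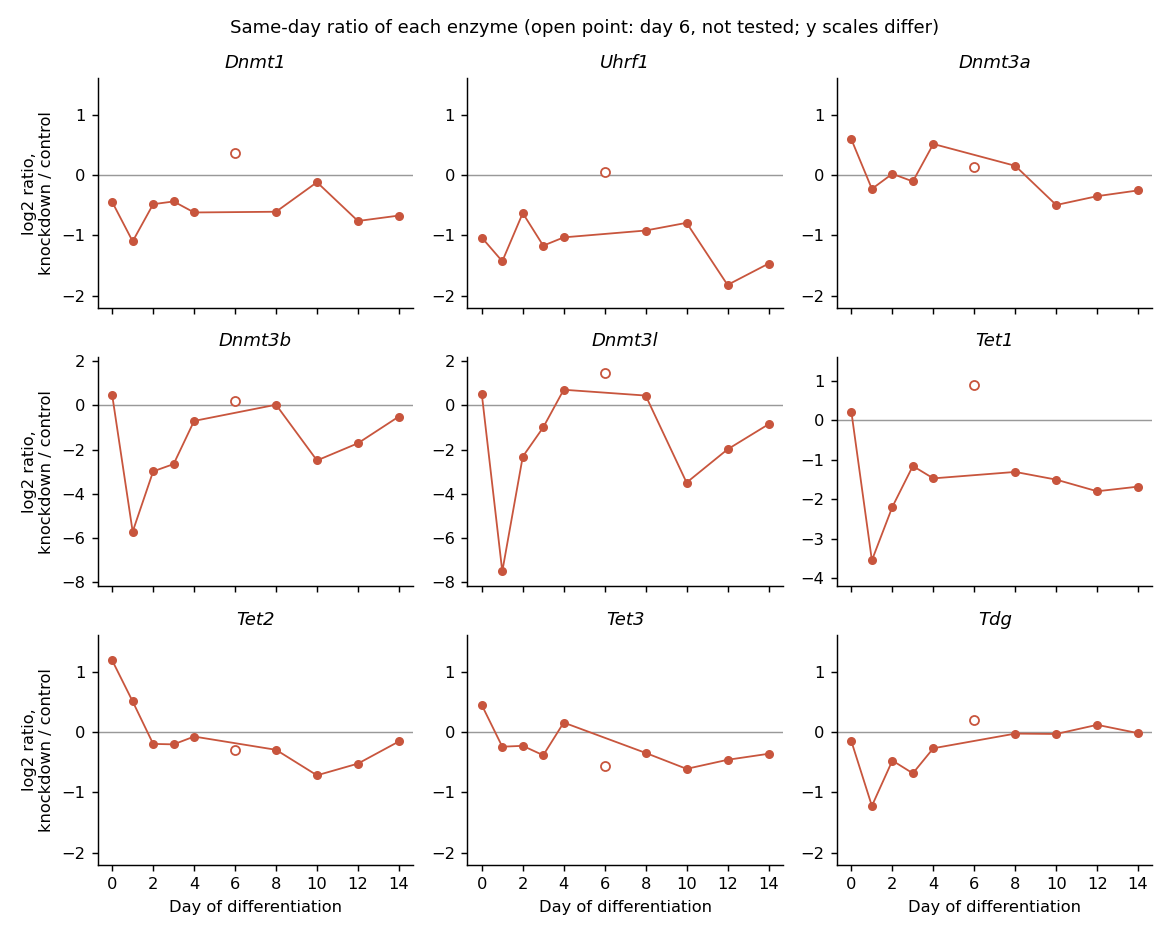
Log2 ratio of knockdown over control (y axis, scales differ between panels) on each day of differentiation (x axis) for the 9 enzymes, 1 point for each pair of libraries, with day 6 as an open point. Dnmt1 and Uhrf1 are below 0 on all 9 days tested, Dnmt3b, Dnmt3l and Tet1 are lowest on day 1, and Dnmt3a and Tet2 lie on both sides of 0.

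The maintenance enzymes were lower throughout. Dnmt1, the copying methyltransferase, had same-day log2 ratios of -0.45, -1.10, -0.48, -0.44 and -0.62 on days 0 to 4 and of -0.61, -0.12, -0.76 and -0.67 on days 8 to 14. It was therefore lower on 9 of 9 days, with a mean of -0.58 ± 0.27 (SD, n = 9), which is 66.8% of control (limma adjusted p = 0.000734). Of all genes tested, 15.2% were below 0 on all 9 days. In an unpaired fit, without day as the block, Dnmt1 did not pass (limma adjusted p = 0.0751). Whole reads could not be recovered for Dnmt1, but its level can be set against the control library of day 0. On that log2 scale the control line ran from -1.11 on day 14 through a median of -0.08 to 0.41 on day 4, and the knockdown line from -1.78 on day 14 through a median of -0.63 to 0.24 on day 6. The smallest tested difference was on day 10, and on day 6 the ratio was 0.37, above every other day.

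Uhrf1, the partner that recognises half-methylated DNA, was lower still. Its level over the 10 libraries of the control line ran from 583 normalized reads on day 14 through a median of 1693 to 2933 on day 4. In the knockdown line it ran from 210 on day 14 through a median of 873 to 1457 on day 2. The ranges overlap across days, but within each tested day the knockdown library was the lower, for example 1003 against 2078 normalized reads on day 0 and 308 against 1082 on day 12. The mean log2 ratio was -1.14 ± 0.37 (SD, n = 9), which is 45.3% of control (limma adjusted p = 0.000104), and on day 6 it was 0.05. Uhrf1 differed more than Dnmt1 on every tested day: the ratio of Dnmt1 exceeded that of Uhrf1 by 0.56 ± 0.29 log2 units (SD, n = 9 days, exact two-sided sign-flip permutation p = 0.00390625, which is the smallest that 9 days can give; the same after adjustment over 4 pairs).

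Markers of cycling cells moved with both enzymes. Of all genes tested, 26.3% were lower and 26.2% higher. Of 14 cycling cell markers, the replication factors Mcm2 to Mcm7 and Pcna among them, 13 were lower and none was higher, with a median log2 ratio of -0.98. Their daily medians lay between -0.66 and -1.58 on the tested days and at 0.56 on day 6, and the ratios of Dnmt1 and Uhrf1 had the same sign on every day. The part of cycling cells in these results was not tested.

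**Figure D2:**
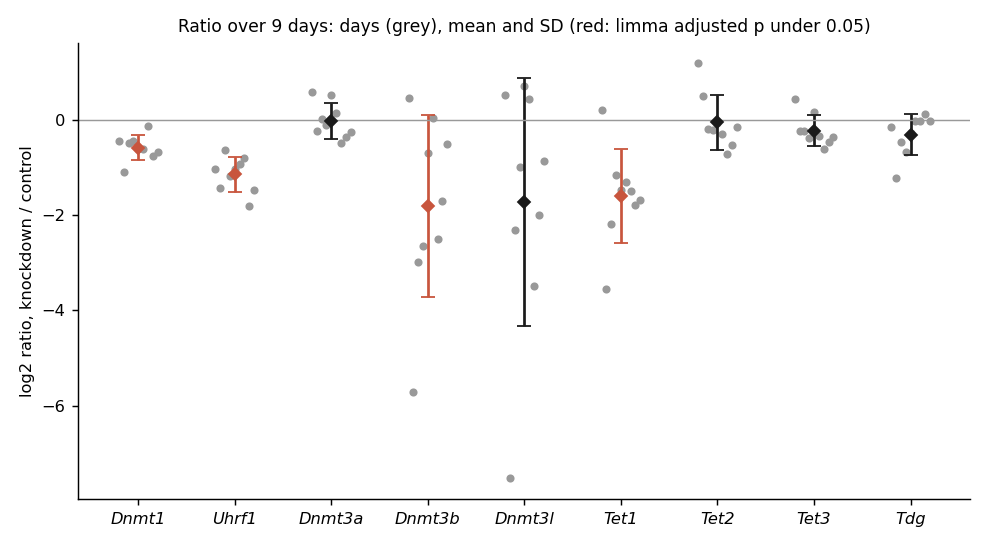
Log2 ratio of knockdown over control (y axis) for each enzyme (x axis). Grey points are the 9 tested days, diamonds and bars the mean and SD, red where the limma adjusted p is under 0.05. The means of Dnmt1 (-0.58), Uhrf1 (-1.14), Dnmt3b (-1.81) and Tet1 (-1.61) are red, and the bars of Dnmt3b and Dnmt3l are the longest.

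Among the new-site methyltransferases, Dnmt3b was lower and Dnmt3a was close to control. Dnmt3b stood at 1122, 2087, 2103, 2611 and 1614 normalized reads on days 0 to 4 of the control line. The knockdown line had 1536, 40.2, 263, 414 and 991 on the same days. The knockdown library was thus above the control on day 0, lowest on day 1 and nearer to the control by day 4. On day 6 there were 242 reads in the control and 279 in the knockdown, and on day 8 there were 380 and 383. On days 10, 12 and 14 the control had 467, 634 and 162 normalized reads and the knockdown 82.6, 194 and 114. Knockdown was the lower on 7 of 9 days, with a mean log2 ratio of -1.81 ± 1.92 (SD, n = 9; limma adjusted p = 0.0233), or 28.5% of control. On day 6 the ratio was 0.18. The call was lost without day 2 (limma adjusted p = 0.0530) or without day 3 (0.0533), while without day 1, the lowest day, the mean was -1.32 (limma adjusted p = 0.0281).

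Dnmt3a, the other catalytic enzyme, ranged from 2046 to 3383 normalized reads in the control line, with a median of 2303. In the knockdown line it ranged from 1822 to 3272, with a median of 2446, so the lines overlap almost fully. Knockdown was higher on days 0, 2, 4, 6 and 8, by up to 0.59 log2 units on day 0, and lower on the other days, by up to 0.50 on day 10. The mean log2 ratio was -0.02 ± 0.38 (SD, n = 9; limma adjusted p = 0.912), and on day 6 it was 0.14. Within the same libraries the ratio of Dnmt3a exceeded that of Dnmt3b by 1.79 ± 1.74 log2 units, between 0.12 and 5.49 on the 9 days (exact sign-flip permutation p = 0.00390625, adjusted over 4 pairs 0.00390625), and by -0.04 on day 6.

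Dnmt3l, the cofactor without activity, had ratios that were lowest on day 1 and low again on day 10, as Dnmt3b did, but it did not pass the test. On day 4 the ratios had opposite signs, 0.71 for Dnmt3l and -0.70 for Dnmt3b. The control line had between 36.0 normalized reads (day 6) and 565 (day 12), with a median of 171. The knockdown line had 195 on day 0, was listed at the floor on day 1, and then had 34.3, 70.5 and 166 normalized reads on days 2 to 4. From day 6 on it had 100.1, 393, 29.8, 143 and 112. On day 1 the control had 170 normalized reads, so that Dnmt3l was at least 57.7-fold lower in the knockdown library, taking 3 counts as the floor of that library. Knockdown was lower on 6 of 9 days, the mean log2 ratio was -1.72 ± 2.60 (SD, n = 9; limma adjusted p = 0.0867), and with day 1 left out it was -0.999 (limma adjusted p = 0.116). On day 6 the ratio was 1.45. The deposited ratio of day 1, -7.52, is against a value of 1 normalized count and depends on it.

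**Figure D3:**
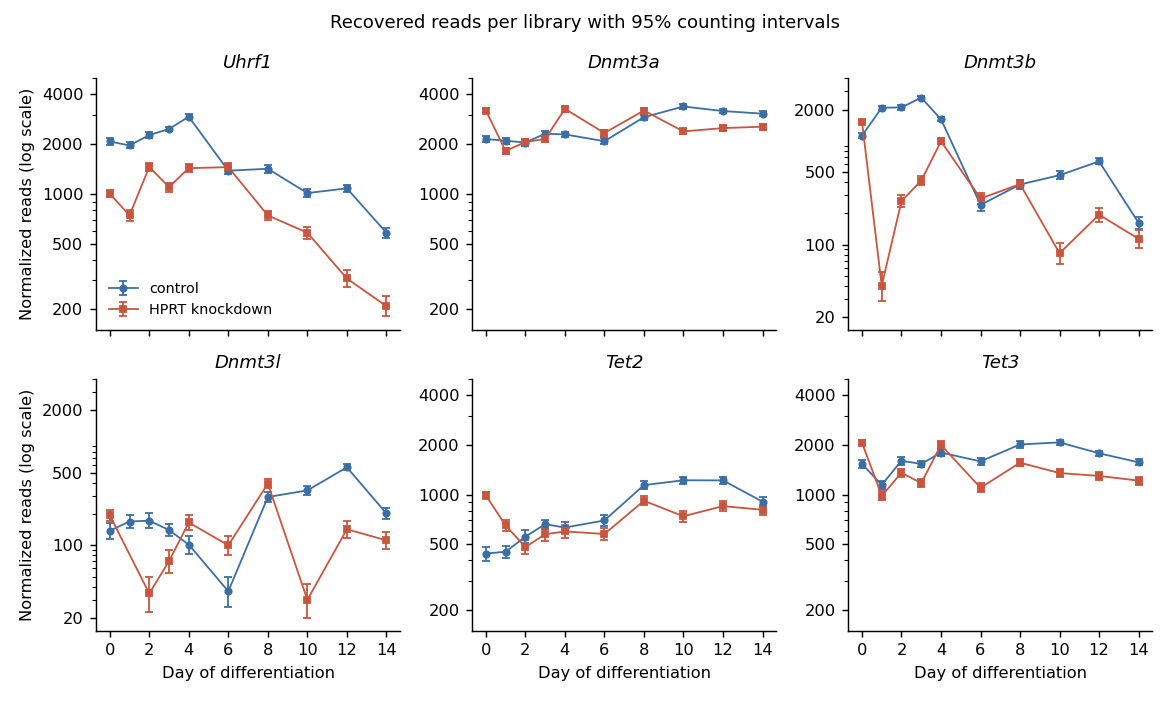
Normalized reads (y axis, log scale) on each day of differentiation (x axis) for the 6 enzymes whose whole reads could be recovered from the ratios, with control in blue, HPRT knockdown in red and bars for 95% counting intervals. Uhrf1 is below the control in the knockdown line on every day but day 6, Dnmt3b drops to 40.2 in the knockdown library of day 1, the knockdown library of day 1 is missing for Dnmt3l because it was at the floor, and Dnmt3a, Tet2 and Tet3 lie between 440 and 3383 throughout.

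The 3 oxidising enzymes split in the same manner. Tet1 was lower in the knockdown line on 8 of 9 days. Its log2 ratios were 0.20, -3.54, -2.19, -1.16 and -1.47 on days 0 to 4 and -1.31, -1.50, -1.80 and -1.68 on days 8 to 14. From day 3 on, day 6 apart, they stayed between -1.16 and -1.80. As a log2 level against control day 0, Tet1 lay between 0 and 1.20 in the control line, with a median of 0.77, and between -2.32 and 0.97 in the knockdown line, with a median of -0.72. The mean was -1.61 ± 0.98 (SD, n = 9; limma adjusted p = 0.00160), which is 32.9% of control, and day 6 again went the other way, at 0.90.

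Tet2 had between 440 and 1221 normalized reads in the control line (median 680.5) and between 482 and 990.0 in the knockdown line (median 695). It was 990.0 against 440 on day 0 and 651 against 451 on day 1, and on all later days the knockdown library was the lower, by 0.08 to 0.72 log2 units. The mean log2 ratio was -0.05 ± 0.57 (SD, n = 9; limma adjusted p = 0.815), and day 6 was at -0.30. Tet3 ran from 1145 to 2071 normalized reads in the control line (median 1596) and from 983 to 2066 in the knockdown line (median 1324). Its mean log2 ratio was -0.23 ± 0.33 (SD, n = 9; limma adjusted p = 0.104), and without day 0, when knockdown was the higher, Tet3 passed (limma adjusted p = 0.0136). On day 6 it was at -0.56. The ratio of Tet1 was below that of Tet3 on every tested day, by 1.38 ± 0.88 log2 units, and below that of Tet2 by 1.55 ± 1.01 (SD, n = 9 days each; exact sign-flip permutation p = 0.00390625 for both, unchanged by adjustment). On day 6 the order was the reverse, with Tet3 minus Tet1 at -1.46 and Tet2 minus Tet1 at -1.20.

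Tdg, the glycosylase, was 1.23 log2 units lower on day 1 and 0.69 lower on day 3, and from day 8 to day 14 its ratio lay between -0.03 and 0.12. Its log2 level against control day 0 ran from -0.81 to 0.17 in the control line (median -0.26) and from -1.38 to -0.12 in the knockdown line (median -0.50). The mean log2 ratio was -0.31 ± 0.43 (SD, n = 9), lower on 8 of 9 days (limma adjusted p = 0.0804), and on day 6 it was 0.20.

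Markers of the pluripotent state moved with Dnmt3b, Dnmt3l and Tet1 on some days and apart from them on others. Of all genes tested, 26.3% were lower and 26.2% higher. All 13 markers of pluripotent stem cells passed the test, 12 lower and Tbx3 higher, with a median of -2.63. The daily medians were -0.88, -6.92, -2.89, -1.73 and -1.22 from day 0 to day 4. They were 0.23 on day 6 and -1.33, -4.89, -2.11 and -1.77 afterwards. Dnmt3b, Dnmt3l and Tet1 had their lowest ratios on day 1, as did the marker median, though not every marker: Klf4 was at 0.20 and Tbx3 at 2.64 on that day. Dnmt3b and Dnmt3l dropped again on day 10, to -2.49 and -3.50, whereas Tet1 was at -1.50. Where the marker median was below 0, Dnmt3l was at 0.71 on day 4 and 0.45 on day 8, and Dnmt3b at 0.03 on day 8. On day 0 the marker median was already below 0, with Tbx3 (1.94) and Tcl1 (0.08) above 0, whereas Dnmt3b (0.47), Dnmt3l (0.51) and Tet1 (0.20) were above 0. The ratio of a marker that is at the floor in a library depends on that floor, as for Dnmt3l on day 1. The part of pluripotent cells in the result was not tested.

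**Figure D4:**
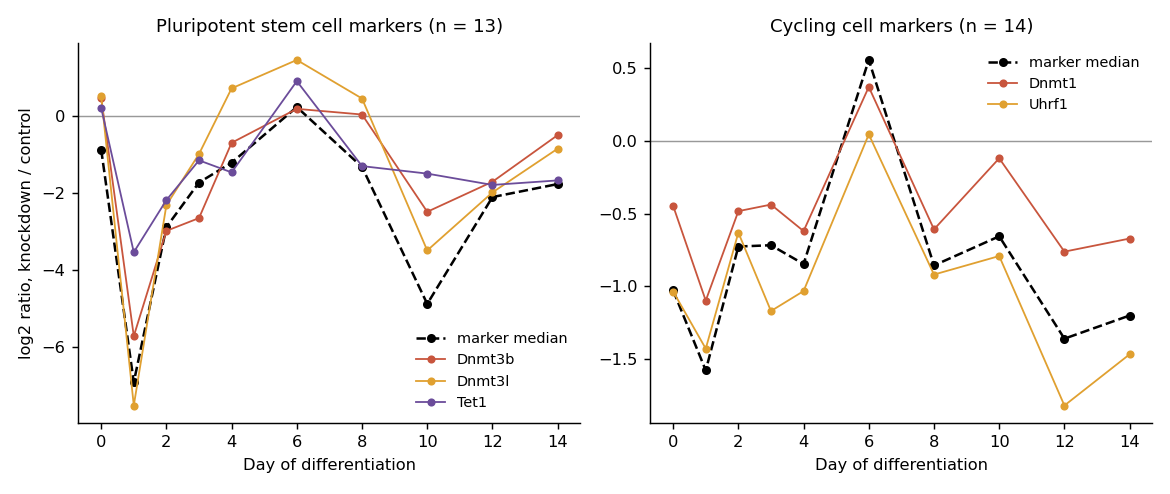
Log2 ratio of knockdown over control (y axis) on each day of differentiation (x axis), with the median of a marker list as a dashed line and members as solid lines. Left, the median of 13 pluripotent stem cell markers with Dnmt3b, Dnmt3l and Tet1, each line lowest on day 1. Right, the median of 14 cycling cell markers with Dnmt1 and Uhrf1, each line above 0 on day 6 alone.

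Levels of different genes can be compared only per length, and this was possible for 6 members. In the control line the median number of normalized reads per kilobase of exon over 10 libraries was 397 for Uhrf1, 172 for Dnmt3b, 144 for Tet3, 138 for Dnmt3a, 73.9 for Tet2 and 57.3 for Dnmt3l. In the knockdown line it was 205 for Uhrf1, 147 for Dnmt3a, 119 for Tet3, 75.6 for Tet2, 53.0 for Dnmt3b and, over the 9 libraries above the floor, 37.4 for Dnmt3l. Dnmt3b thus went from the second place to the fifth. Neighbours in this order overlapped over the libraries, for example Tet3 (103 to 187) and Dnmt3a (123 to 203) in the control line. Exon length is the union of all annotated exons, 16.642 kb for Dnmt3a, which lowers the value of a gene with long alternative exons. The levels of Uhrf1 and Dnmt3b, and so their places, may also depend on reads shared with near-identical copies. Such copies exist for 63.5% and 18.1% of their exon bases.

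Through differentiation Dnmt1, Uhrf1, Dnmt3b and Tdg fell in the control line, while Dnmt3a and Tet2 rose. In a linear fit on day, 4 members fell and 2 rose, where 23.9% of all genes tested fell and 19.7% rose. Dnmt1 fell by 0.094 log2 units per day (limma adjusted p = 0.00201), Uhrf1 by 0.131 (0.00244), Dnmt3b by 0.228 (0.00443) and Tdg by 0.068 (0.00476). The control table of days 3 to 4 was at odds with the others, by 0.18 log2 units for Tdg. With that step taken through the knockdown tables, the slope of Tdg was -0.050 per day (limma adjusted p = 0.0204). Dnmt3a rose by 0.053 per day (limma adjusted p = 0.00244) and Tet2 by 0.100 (0.00371). Tet2 was thus at 907 normalized reads on day 14 against 440 on day 0, and Dnmt3b at 162 against 1122. The slopes of Dnmt3l (0.098, limma adjusted p = 0.0596), Tet1 (-0.005, 0.900) and Tet3 (0.028, 0.178) did not pass.

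The knockdown line had fewer calls in all. Only Dnmt1 (-0.092 per day, limma adjusted p = 0.0353) and Uhrf1 (-0.163, 0.0214) had slopes that passed, both downward, where 5.53% of all genes fell and 7.6% rose. The call of Uhrf1 was lost without day 12 or day 14, and that of Dnmt1 was lost without any of days 2, 3, 8, 10, 12 and 14. Tet2 began at 990.0 normalized reads in this line and stood at 809 on day 14, and its slope was 0.023 per day (limma adjusted p = 0.496). Of the 14 cycling cell markers, all fell with time in the control line, where 23.9% of all genes fell. In the knockdown line 9 did, where 5.53% of all genes fell. Whether the trends of the lines differed was tested by the slope of the same-day ratio. No member passed that test in limma, where 7.43% of all genes passed upward and 6.61% downward. At an unadjusted p under 0.05, 1 member passed upward and 1 downward, where 32.6% of all genes passed. The nearest was Tet2, at -0.076 per day (limma adjusted p = 0.106).

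Among other genes of the pathway the list medians lay between -1.64 and 0.23. The counts of each list stand beside shares of 26.3% lower and 26.2% higher over all genes tested. Of 7 partners of maintenance, 4 were lower and 1 was higher by limma, with a median log2 ratio of -0.35. Hells, a chromatin remodeller needed for methylation of repeats, was at -1.67 ± 0.59 and lower on 9 of 9 days (limma adjusted p = 0.000119). Pcna, the replication clamp that carries DNMT1, was at -0.72 ± 0.35, and Usp7, a deubiquitinase bound to DNMT1 and UHRF1, at -0.68 ± 0.20, each lower on 9 days. Hdac2 was also lower (-0.31 ± 0.25). Rb1, the retinoblastoma repressor of E2F, was higher on 9 of 9 days, at 0.37 ± 0.13. Uhrf2 (-0.26, limma adjusted p = 0.0549) and Hdac1 (-0.35, 0.0716) did not pass.

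Proteins of the families that read the mark had a median of 0.22. Of 8, 3 were higher and 1 was lower: Zbtb4 stood at 1.16 ± 0.46, Mbd2 at 0.90 ± 0.24 and Mbd1 at 0.45 ± 0.14, each higher on 9 of 9 days, and Mbd3 at -0.21 ± 0.21. For Mbd1 the tables differed by up to 0.20 from one another. Mbd4 (-0.16), Zbtb33 (0.19) and Zbtb38 (0.25) did not pass. Of 5 CXXC proteins, which bind unmethylated CpG, Kdm2a was higher (0.26 ± 0.22) and Kdm2b lower (-0.64 ± 0.38). Cxxc1 (0.12), Cxxc4 (-0.25) and Cxxc5 (0.21) did not pass. Over all genes tested 26.2% were higher and 26.3% lower, so the counts of both lists are not taken as a trait of the lists.

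Of 12 silencing cofactors 9 were lower and none was higher, with a median of -0.56, where 26.3% of all genes were lower and 26.2% higher. The most negative were Dppa3, which protects methylation in the zygote, at -3.08 ± 1.90, and Prdm14, a regulator of the stem cell state that represses Dnmt3b, at -2.74 ± 2.79 (limma adjusted p = 0.0193). Both are genes of pluripotent cells. Their day 1 ratios, -7.24 for Dppa3 and -6.72 for Prdm14, and so their means, may depend on the floor, as for Dnmt3l. Of 15 base excision repair genes 9 were lower and 2 higher, with a median of -0.47. Ung, the uracil glycosylase, was at -1.49 ± 0.66 and Apex1, the endonuclease that follows it, at -1.14 ± 0.56, both lower on 9 of 9 days, while Neil1 (0.43 ± 0.47) and Ogg1 (0.38 ± 0.26), other glycosylases, were higher.

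Among 7 deaminases and Gadd45 genes, 5 were high enough to be tested. Apobec3 was lower (-1.53 ± 0.30, on 9 of 9 days) as was Gadd45a (-0.51 ± 0.47), Gadd45b was higher (0.80 ± 0.53), and Apobec1 (0.23) and Gadd45g (0.35) did not pass. Of 12 genes of the methyl donor cycle 11 could be tested, 5 were lower and 2 higher, with a median of -0.18. Over all genes tested, 26.3% were lower and 26.2% higher. Shmt1, a serine hydroxymethyltransferase, was at -1.20 ± 0.41 and Ahcy, which removes the product of methylation, at -0.95 ± 0.67, while Ahcyl1 was higher (0.38 ± 0.27). Of 16 germline genes known to be silenced by promoter methylation 8 could be tested. Of these 4 were lower and 1 was higher, with a median of -1.64. Tex19.1, which is also a gene of pluripotent stem cells, was at -3.73 ± 2.13 and Mov10l1 at -3.24 ± 1.46, both lower on 9 of 9 days, while Brdt, a testis bromodomain protein, was at 0.94 ± 0.34 and higher on 9 of 9. The day 1 ratios of Tex19.1 (-8.95) and Mov10l1 (-4.33), and so their means, may depend on the floor, as for Dnmt3l.

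**Figure D5:**
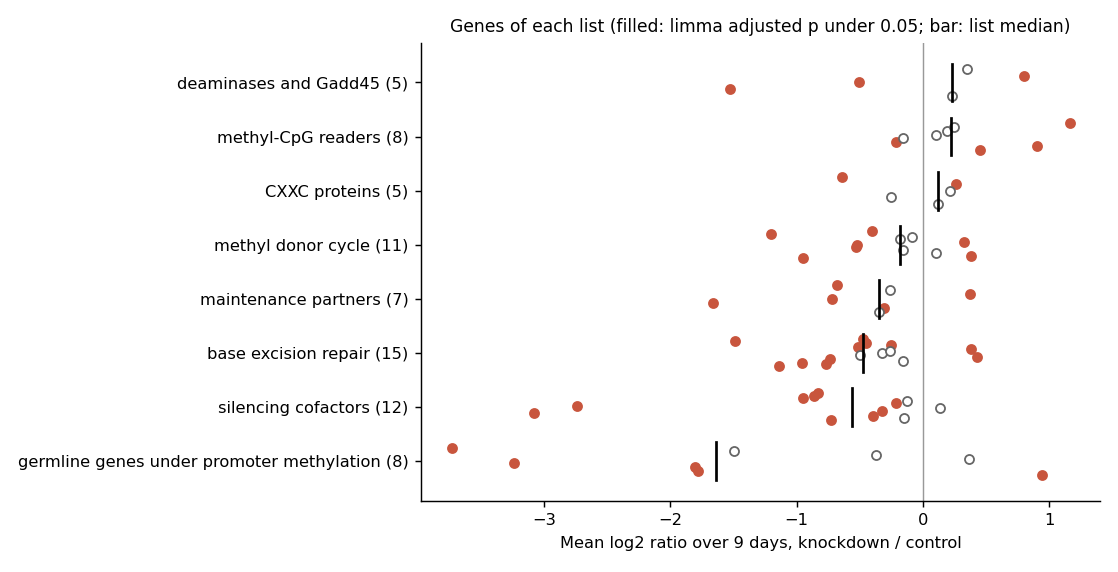
Mean log2 ratio of knockdown over control on 9 days (x axis) for each tested gene of 8 lists (y axis, number of genes in brackets). Filled points passed limma at an adjusted p under 0.05, open points did not, and bars are list medians. The medians run from -1.64 for germline genes to 0.23 for deaminases and Gadd45 genes.

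Of the markers of other cells, 8 of 11 of oligodendrocytes and astrocytes were higher and none lower (median 1.86), and 5 of 10 of neurons were lower and none higher (median -0.99). All 8 neural progenitor markers were high enough to be tested in these SNM, with 2 higher and 2 lower. Feeder fibroblast markers had 1 higher and 2 lower of 10 (median -0.11) and endoderm markers 0 higher and 1 lower of 6 (median -0.38). Over all genes tested the shares were 26.2% higher and 26.3% lower, and the progenitor counts are near them.

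The genes whose ratios were most like those of the 3 members with the largest mean ratios were looked up over all 10 days. For Dnmt3b these were Phf3 (Pearson r = 0.966), Atf2 (0.958) and Gm2373 (0.954) among 8247 genes, the last with tables that disagreed by up to 4.01 log2 units. The swings of Phf3 and Atf2 were far smaller, with ratios of -0.66 and -0.78 on day 1 against -5.72 for Dnmt3b. For Dnmt3l they were AU018091 (0.990), Tdgf1 (0.989) and Gm13154 (0.987) among 13607 genes, where Tdgf1 is one of the pluripotency markers. For Tet1 they were Etnk1 (0.970), Trim33 (0.966) and Pias2 (0.964) among 8247 genes, with day 1 ratios of -0.85, -0.92 and -0.55. The points of such a correlation share libraries and the low day 1 and high day 6, and it is given as a description.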

How the data were processed

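RNA of each line and time point was pooled before sequencing according to the study, although the labels speak of replicated cultures; the study names the vector lentiviral. Libraries were made with a kit that does not mark strand, and the lane of each library is not given in the sources used here. Per the study and the submitters' processing notes, reads were called with CASAVA 1.8.2, aligned with ELAND to NCBI37/mm9 and normalized with DESeq in Avadis NGS. The deposited values are log2 values that the authors centred on the mean of the 2 libraries of a table and normalized table by table, with normalized counts up to 1 set to log2 0. There are 28 tables: 10 of the same day and 9 of consecutive days for each line. Library totals are not in these values, and size factors ran from 0.823 to 1.60.

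A typical level was read from the rounding of the single-precision values, and 13608 genes at 4 or more on the log2 scale were tested (19041 had reads). limma 3.58.1 in R 4.3.3 was fitted on the 9 same-day ratios (intercept, or slope on day), or on the libraries of a line joined through the consecutive-day tables (slope on day), with adjustment over all 13608 genes. The same-day table makes day the block, as in the study. Deviations of the lines from their means on the same day correlated at -0.03 on day 0 and at 0.13 to 0.41 on the other 8 days. Differences between members were tested by exact sign-flip permutation, two-sided, over 9 days (smallest p 0.00390625) and adjusted over 4 pairs.

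Reads were recovered as whole 49ths of a read that fit the ratios of 27 tables, which gave levels for 6 members and Hprt, not for Dnmt1, Tet1 and Tdg. One table, the control step from day 3 to 4, was at odds with the others and was left out there. Normalized reads are those divided by size factors, and intervals (exact Poisson, 95%) and the floor of 3 counts cover counting error only. On simulated data 56 of 60 genes were accepted and all 56 were right. With 200 changed genes of 13608, limma recovered 32% at a log2 change of 0.5, 76.5% at 1 and 94.5% at 2 for the difference between the lines. For the slope of the ratio it recovered none at a total change of 0.5 or 1 and 57% at 2. Copies of exons were sought with blastn 2.17.0.

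The members and gene lists were chosen with earlier results of these data known. All members are named; of a list, all genes where it has 8 or fewer, otherwise the 2 most positive and 2 most negative that passed (for the germline list too), and for likeness the 3 highest correlations with each of the 3 members of largest mean ratio among genes of the same or higher level. A few genes of these lists are not reported here by name. The alternatives were other filters, centring, day 6 kept, log time, the loop of other tables, an unpaired fit, a sign-flip test for each gene, each day left out and, chosen after seeing the data, the control step from day 3 to 4 through the knockdown tables.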

Additional observations from a re-analysis of the deposited data

How the results depend on the processing

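The differences of Dnmt1, Uhrf1, Dnmt3b and Tet1 kept their direction under every alternative run, and the 4 differences between members kept their direction and call. With day 6 kept, 6198 genes differed between the lines, against 7141 without it, and 7716 of 19041 with no filter on level. Without the replicate block, in an unpaired fit, 5829 genes and 3 members were called, since Dnmt1 (-0.56) then had a limma adjusted p of 0.0751; the pairing by day changed no other member's call. With 1 day left out the number of genes called ranged from 6254 to 7265 and that of members from 3 to 5. The slopes depended more on the choice of days and scale. Genes called for the slope of the ratio were 1911, 1066 with day 6 kept and 605 to 1657 with 1 day left out, and on log2(day + 1) 1 member was called in place of none, Tet2 (limma adjusted p = 0.0268). In the control line 5933 genes had a slope, 3929 on log2(day + 1). In the knockdown line 1786 did, 127 on log2(day + 1) and 171 to 2959 with 1 day left out, and the members called were 2, 1 with day 6 kept, 0 on log2(day + 1) and 0 to 2 with 1 day left out. The slope of Dnmt3l in the control line was called without day 14 (limma adjusted p = 0.0142) and when the step from day 3 to 4 went through the knockdown tables (0.0411). The cause was not tested. Signs changed only for values that passed no test. The control slope of Tet1 became 0.046 on log2(day + 1) and 0.0018 through the knockdown tables. With 1 day left out the mean ratio ranged from -0.093 to 0.042 for Dnmt3a and from -0.21 to 0.029 for Tet2. The slope of the ratio ranged from -0.010 to 0.013 for Dnmt1, -0.11 to 0.17 for Dnmt3l and -0.066 to 0.065 for Tet1, and the control slope of Tet1 from -0.032 to 0.025. In the knockdown line the slope ranged from -0.0072 to 0.021 for Dnmt3a, -0.0094 to 0.26 for Dnmt3l, -0.025 to 0.016 for Tdg, -0.055 to 0.031 for Tet1 and -0.036 to 0.00048 for Tet3. Another pseudocount could not be run, since the values are deposited on the log2 scale. With 1 library for each line and day, a difference on a single day has no replicate check.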
